A study of Mus musculus with 7 samples.

Results

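Replication-dependent histone genes encode the core histones H2A, H2B, H3 and H4 and the linker histone H1 that package newly made DNA. They lie in clusters, are short, have no introns, and are transcribed mainly in S phase, and their mRNAs end in a stem-loop instead of a poly(A) tail. NPAT and HINFP drive their transcription, and SLBP and the U7 snRNP process the transcripts. Muscle stem cells (MuSCs) in resting muscle are mostly out of the cell cycle. ATAC-seq, in which the Tn5 transposase cuts accessible DNA, reads how open a promoter is and not how much of a gene is transcribed.

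The genes were chosen by name: protein-coding mouse genes with symbols or older names beginning with Hist1h, Hist2h, Hist3h or Hist4, or with the newer stems H1f, H2ac, H2bc, H3c and H4c, on chromosomes 3, 6, 11 and 13 of mm10. The rule found 69 genes among 21436 protein-coding genes with a transcription start site (TSS): 54 on chromosome 13, 10 on chromosome 3, 2 on chromosome 11 and 3 on chromosome 6. Of these, 5 carry a matching name but are not replication-dependent cluster genes. They are the linker variants H1f10 and H1f8 on chromosome 6 and the testis genes H1f6, H2bc1 and H2ac1 on chromosome 13.

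The data were 7 ATAC-seq libraries, each from 5000 MuSCs freshly sorted from skeletal muscle of a young male C57BL/6 mouse. The 4 Nedd4L-cKO mice (Nedd4L fl/fl, Pax7 cre/+) carried a Cre in the Pax7 locus that removes an exon of the catalytic domain of the E3 ubiquitin ligase Nedd4L in Pax7-expressing cells, which leaves a transcript but no active enzyme. The 3 WT mice were age-matched, and whether they carried the Cre or the floxed allele is not given in the sources used here. The comparison asks whether loss of Nedd4L activity changes chromatin accessibility in MuSCs. A peak was assigned to a gene when it overlapped the window from 1 kb before to 1 kb after the TSS. Each value below is the rank of that peak within its own library, from 0 for the weakest to 100 for the strongest peak, by pileup (mean read coverage over the peak) or by fold enrichment (pileup over the local background). Where several peaks overlapped a window, the highest fold, the highest pileup and the longest length were taken. Ranks were used because neither column is scaled between libraries. Values are mean ± SD over the libraries with a peak, and p-values measure the spread between single-mouse libraries.

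Peak calling read 28353538 to 42431517 tags per library and kept 14429374 to 20084685, at 1 tag per position. Tag numbers below are those kept. The libraries held 69302 to 79158 peaks. WT replicate 3 came from lane 2 of the flow cell and the other 6 libraries from lane 1. All 10 MuSC marker promoters had a peak in all 7 libraries. None of the 5 immune promoters had one in any library, nor did the closed control Pou5f1, while 2 of 4 endothelial promoters (Tek and Kdr), 3 of 4 myofibre promoters and 0 of 3 promoters of fibro-adipogenic progenitors did in all 7. The outer TSS of Nedd4l had no peak in any library, and peak lists do not show the recombined exon. Only this start site was read for Nedd4l, so that its promoter cannot be called closed.

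Of the 69 histone promoters, 59 had a peak in all 7 libraries (85.5%), beside 59.7% of all promoters. There was no peak in any library at 7 of them (10.1%), beside 34.7% of all promoters. The remaining 3 were called in some libraries only. By family, 7 of 8 H1, 14 of 18 H2A, 15 of 18 H2B, 12 of 12 H3 and 11 of 13 H4 promoters were called in all 7. A call needed a peak in the window and not on the TSS itself. All 10 genes on chromosome 3, both on chromosome 11 and all 3 on chromosome 6 were called throughout, and every promoter called in fewer libraries was on chromosome 13. Without the 5 linker variants and testis genes, 57 of 64 were called in all 7 and 4 in none.

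The clusters were compact. On chromosome 13 the genes fell into stretches separated by more than 100 kb: 18 genes at chr13:21715711-21837530, 5 at chr13:22035122-22043658, 29 at chr13:23531044-23764412 and the testis pair H2bc1 and H2ac1 at chr13:23933725-23934913. The 10 genes on chromosome 3 lay within 50.3 kb (chr3:96219885-96270192), and H2bu2 and H2aw within 6.28 kb at chr11:58948911-58955192. These stretches held hardly any other protein-coding TSS. The exceptions were Hfe, an iron regulator within the 29-gene stretch, and Trim17, whose TSS lay 14 bp from that of H2aw, so that the peak of H2aw cannot be assigned to either gene alone. In the 18-gene stretch, 10 of the 11 to 12 peaks in each library were at a histone promoter, and in the 29-gene stretch 18 to 19 of 24 to 26 were.

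Histone genes also shared peaks. The 59 promoters called in all libraries rested on 39 separate regions, of which 22 served 1 gene, 13 served 2 and 4 served 3, so that 38 genes shared a region and their values are not independent. Among the 69 genes there were 13 head-to-head pairs with divergent TSSs 164 to 608 bp apart, and 12 of them joined an H2A to an H2B gene. One peak spanned both TSSs in every library for 10 pairs, and the other 3 pairs had no peak in any library. The pair with the strongest peak was H2ac22 and H2bc22, at a mean pileup percentile of 98.3 ± 0.917 (SD, n = 7). The values were 97.5, 98.1, 98.6 and 98.9 in Nedd4L-cKO and 99.1, 99.2 and 96.7 in WT, and the groups overlapped.

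The stretches shown here set promoters with a peak in all 7 libraries beside promoters called in 1 library or in none. Whether their sequence parts them was not tested. The sequences are from the RefSeq promoter table (GRCm38.p6, the assembly of mm10), which held 64 of the 69 genes. All run 5′ to 3′ on the plus strand and stop before the RefSeq TSS of the gene on that strand. Capitals mark matches, on either strand, to any of 4 short motifs. One is the TATA box, searched as TATAAA. Another is the CCAAT box, which NF-Y binds. The octamer bound by Oct1, a regulator of H2B genes, was searched as ATTTGCAT. The fourth is the H1 box of linker histone promoters, searched as AAACACA. First stand the 239 bases between the H2ac22 and H2bc22 start sites, with a peak in all 7 libraries (chr13:21787249-21787487, plus strand):
H2ac22 to H2bc22: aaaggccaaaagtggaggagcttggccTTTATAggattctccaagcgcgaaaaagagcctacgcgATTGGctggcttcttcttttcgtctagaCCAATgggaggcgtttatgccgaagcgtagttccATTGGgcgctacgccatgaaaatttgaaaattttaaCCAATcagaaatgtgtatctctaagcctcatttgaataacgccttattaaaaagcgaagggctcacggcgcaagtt
The next are the 167 bases between H2bc23 and H2ac23, which had no peak in any library (chr13:21810200-21810366, plus strand):
H2bc23 to H2ac23: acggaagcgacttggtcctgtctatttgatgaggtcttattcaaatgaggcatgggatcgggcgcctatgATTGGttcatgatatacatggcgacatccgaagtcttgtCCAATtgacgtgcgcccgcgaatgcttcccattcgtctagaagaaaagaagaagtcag
For H4, the 150 bases before the TSS of H4c8, called in all 7 libraries with the highest pileup of its family (chr13:23530894-23531043, plus strand), stand beside those of H4c2, called in 1 (chr13:23756787-23756936, plus strand):
H4c8: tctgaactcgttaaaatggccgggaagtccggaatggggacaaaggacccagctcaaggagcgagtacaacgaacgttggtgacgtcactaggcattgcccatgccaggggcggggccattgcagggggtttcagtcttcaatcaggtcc
H4c2: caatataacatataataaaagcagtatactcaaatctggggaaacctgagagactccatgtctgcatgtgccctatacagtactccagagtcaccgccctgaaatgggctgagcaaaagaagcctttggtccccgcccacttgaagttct
For H1, the 150 bases before H1f2, called in all 7 libraries (chr13:23738657-23738806, plus strand), stand beside those of the testis gene H1f6, called in none (chr13:23695661-23695810, plus strand):
H1f2: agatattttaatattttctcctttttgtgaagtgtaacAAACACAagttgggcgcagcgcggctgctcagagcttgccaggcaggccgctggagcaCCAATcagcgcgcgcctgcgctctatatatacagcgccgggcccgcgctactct
H1f6: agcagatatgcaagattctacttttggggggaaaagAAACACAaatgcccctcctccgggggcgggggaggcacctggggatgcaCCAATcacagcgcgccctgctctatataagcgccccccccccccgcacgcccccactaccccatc

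Both H1 stretches held 1 AAACACA and 1 CCAAT match, although only H1f2 had a peak. The H2ac22 to H2bc22 stretch held 4 CCAAT matches and 1 TATAAA match, and the H2bc23 to H2ac23 stretch 2 CCAAT matches. Neither H4 stretch held any of the 4 motifs. Over whole 300-base promoter windows (250 bases before to 50 after the TSS), CCAAT was found in 54 of 64 histone promoters (84.4%), beside 39.2% of 17491 protein-coding promoters. It was in all 18 H2A, all 16 H2B and all 10 H3 windows but in 3 of 12 H4 windows. TATAAA was found at any position and on either strand in 35 of 64 (54.7%), beside 13.3% of all promoters. A match on the strand of the gene, starting 20 to 40 bases before the TSS, was found in 12 of 64 (18.75%), beside 2.83%. ATTTGCAT was found in 13 of 64 (20.3%, beside 1.72%), of which 7 were H2A and 6 H2B promoters. AAACACA was found in 9 of 64 (14.1%, beside 6.16%), including 5 of the 8 H1 windows. No matches of different motifs overlapped in a histone promoter. The windows of most head-to-head partners overlap, so that 1 match can count for both genes, and the H2bc23 and H4bc24 windows are identical. The counts are thus not of independent promoters. They describe letters in a window and not bound factors.

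The 4 genes without a peak that are not testis genes are H2bc23, H2ac23, H2ac24 and H4bc24 (an H2B gene, formerly Hist1h2br). They form 2 head-to-head pairs in the 18-gene stretch, and their promoters are copies. The 300-base windows of H2bc23 and H4bc24 were the same at every base, and all 167 bases shown between H2bc23 and H2ac23 recurred in the H4bc24 window. In all 4 windows, every stretch of 150 bases occurred at least 2 times in the mouse genome (searched in GRCm39). The study's methods state that alignments of low mapping quality were discarded. Reads from such copies can have low mapping quality, but the peak lists do not show it, and the part of this filter was not tested. Of all 589 protein-coding promoters whose window was repeated throughout, 2.55% had a peak in all 7 libraries and 95.2% in none. Of the 16448 promoters with no repeated stretch, 62.1% had a peak in all 7. Neither set was split by kind of gene. Whether these 4 promoters are closed in MuSCs therefore cannot be told from the peak lists.

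A further 6 histone promoters were repeated in part and had a peak in all 7 libraries. H4c17 and H4c18, which lie between those 2 pairs, shared a run of 285 identical bases, and 90.1% and 90.7% of the 150-base stretches of their windows were repeated. Their pileup percentiles were among the lowest of the histone genes called throughout, at means of 50.8 (40.7 to 60.2) and 63.4 (56.2 to 67.5), while their fold percentiles were among the highest, at 79.9 ± 8.05 and 93.7 ± 1.44. The strongest H4c17 peak began at a median of 59 bp downstream of the TSS, and no library had a peak on the TSS. On chromosome 3, H3c14 and H3c15 shared 231 identical bases, and H2ac18 and H2ac19 shared 219. Their peaks covered the H2A gene in all 7 libraries and the H3 TSS in none, ending at a median position of -102 bp from the TSS of H3c14 and -121 bp from that of H3c15. The part of repeated sequence in these levels was not tested.

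The 3 testis genes had no repeated stretch and no peak. H1f6 lies within the 29-gene stretch, and its immediate neighbour H4c3 had a peak at a pileup percentile of 89.1 ± 2.30 (SD, n = 7). The other 3 promoters were called in part. H4c9 had a peak in 6 libraries, all but Nedd4L-cKO replicate 1, with fold percentiles of 0.33 to 5.61. H2ac10 had a peak in Nedd4L-cKO replicates 3 and 4 and WT replicates 1 and 2, which are the 4 libraries with the most tags. In Nedd4L-cKO replicate 4 and WT replicate 2 this was the peak of its neighbour H3c8, of 2030 and 1960 bp, extended over H2ac10. H4c2 had a peak of 310 bp in Nedd4L-cKO replicate 1 alone. None of these calls parted the genotypes. Over all promoters, 6 of 21436 (0.028%) had a peak in every library of one genotype and in none of the other, and 0 of the 69 histone promoters did.

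**Figure D1:**
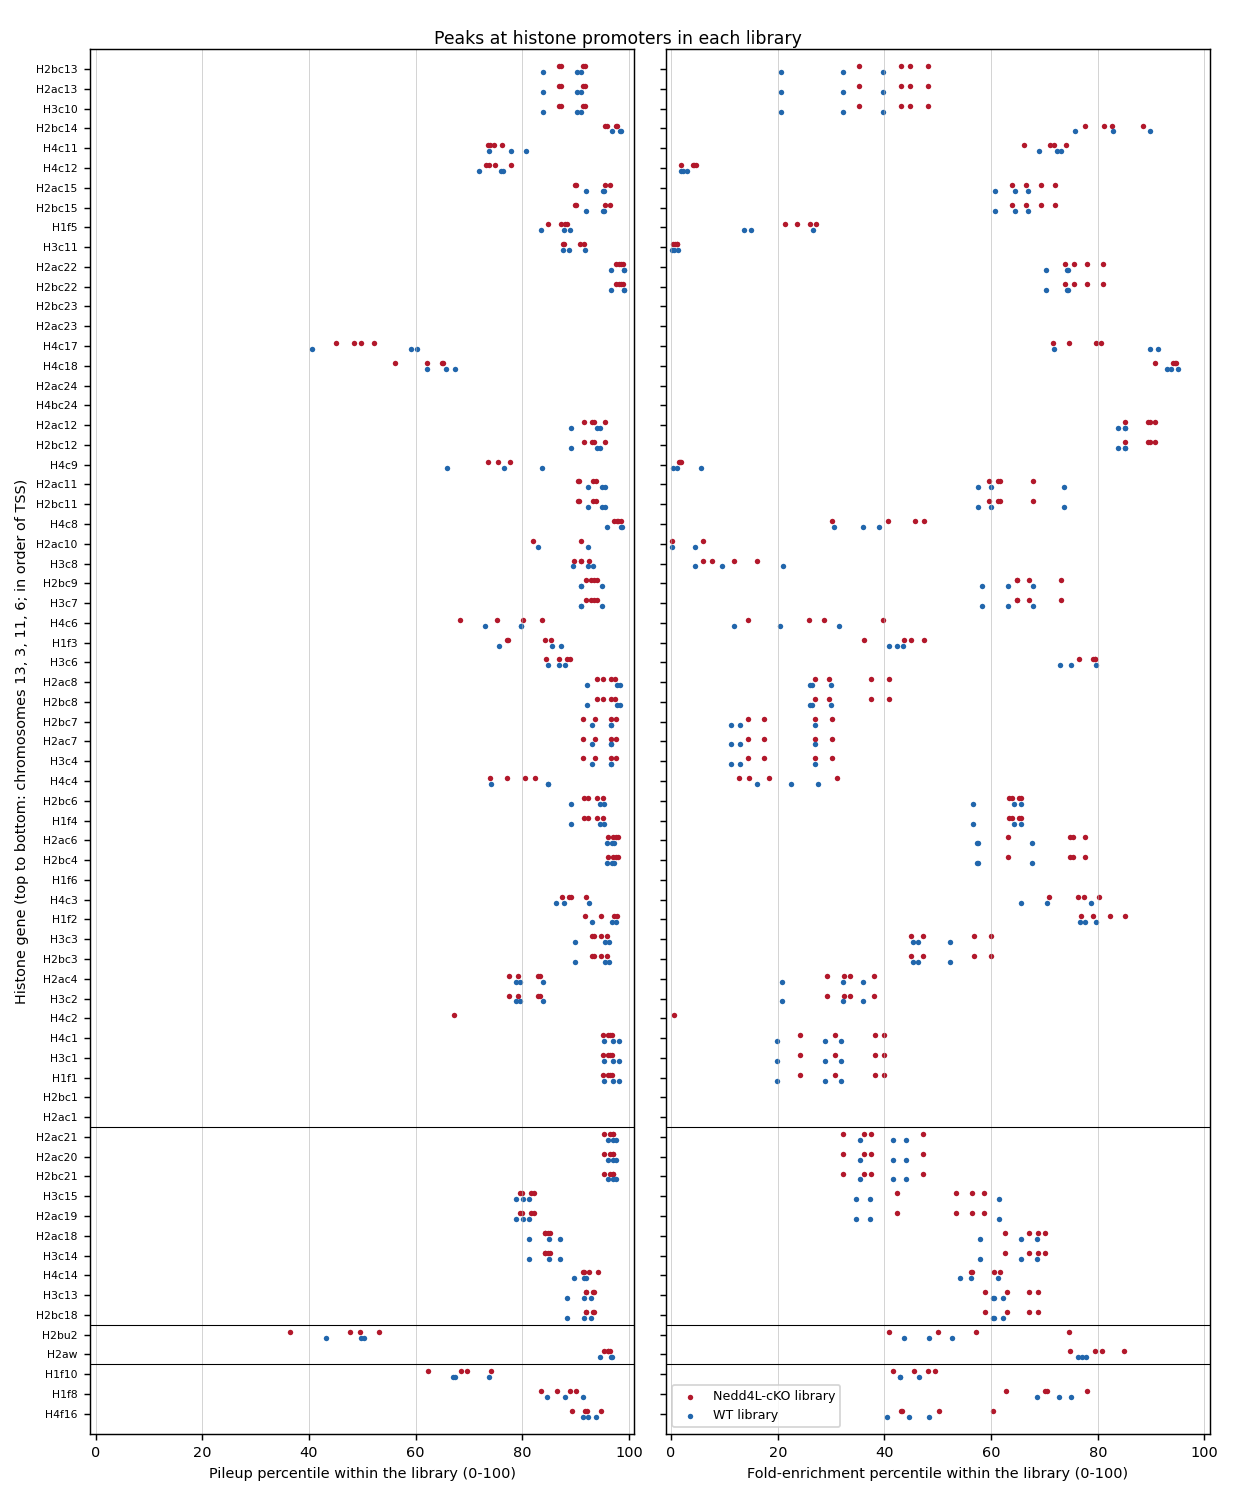
Each row is one of the 69 histone genes, ordered by chromosome (13, 3, 11, 6, parted by lines) and TSS, and each point is the peak of one library (red Nedd4L-cKO, blue WT), by its percentile of pileup (left) and of fold enrichment (right) within the library. Rows without points had no peak; most pileup points lie above 80, and the fold points of the same genes spread from near 0 to over 90.

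The histone promoters called in all libraries had high coverage but middling fold enrichment. Their median pileup percentile was 92.8, beside 86.5 over all 12803 promoters called in all libraries. Their median fold percentile was 50.4, beside 78.9. Of all promoters called throughout, 70.9% had a pileup percentile under the histone median but only 21.5% had a fold percentile under it. The median peak length was 1633 bp, beside 1325 bp. In each of the 7 libraries the histone median was above that of all promoters for pileup (89.5 to 94.5, beside 85.7 to 87.2) and length (1608 to 1729 bp, beside 1259 to 1381 bp), and below it for fold (45.3 to 59.95, beside 78.03 to 80.7). A mean fold percentile under 50 together with a mean pileup percentile over 80 was found at 24 of 59 histone promoters (40.7%) and at 10.8% of all promoters called throughout.

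**Figure D2:**
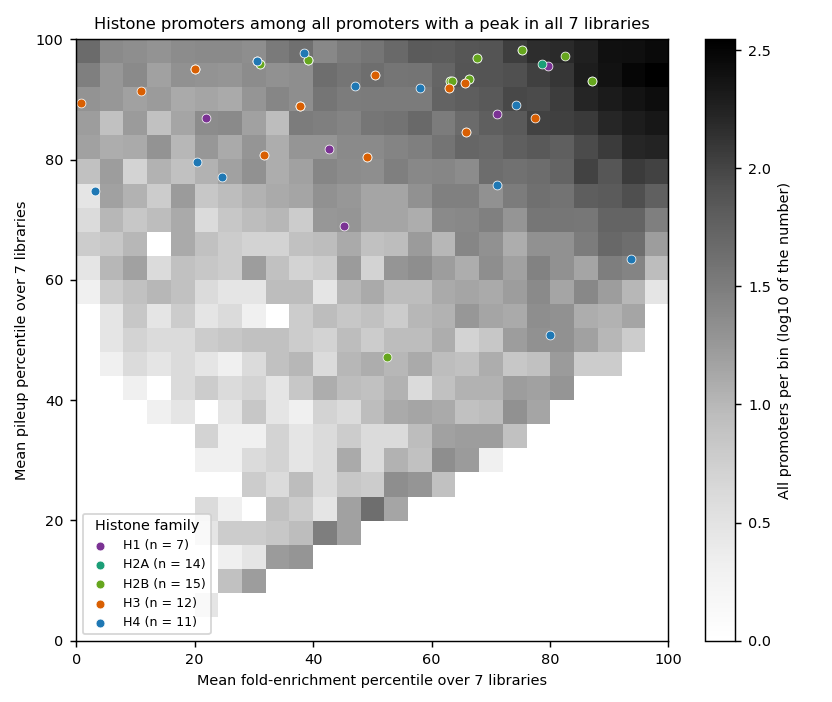
Mean pileup percentile against mean fold-enrichment percentile over 7 libraries. Grey bins count all promoters called in all 7 libraries (log10 scale), and coloured points are the 59 histone promoters by family; genes that share a peak lie on top of each other, so that most H2A points are hidden under H2B or H3 points. All promoters crowd the upper right corner, and the histone promoters run along the top from left to right.

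The same columns also give the background term. MACS2 sets the pileup against the higher of the genome-wide and the local background, the latter read over 10 kb. The ratio of the pileup to the fold column had a median of 9.84 to 14.1 per library at histone promoters, beside 7.08 to 9.32 over all promoters called throughout. It was above the median of all promoters at 54 of 59 histone promoters. As a quotient of the same columns, this ratio restates the contrast of high pileup and lower fold and is no separate observation. Peaks covered a median of 2096 bp in the 10 kb around the histone TSSs, beside 1436 bp around all. H3c11 was the extreme case. Its pileup percentiles were 87.6 to 91.7, its fold percentiles 0.17 to 1.22 and its peak 282 to 546 bp long, and peaks covered 3389 ± 109 bp (SD, n = 7) of the 10 kb around it. H4c12 and H3c8 were also low, at mean fold percentiles of 3.15 ± 1.23 and 10.9 ± 5.86. At the other end H2ac12 and H2bc12, in the 5-gene stretch, had 1400 and 1402 bp covered and a fold percentile of 87.0 ± 2.83 with a pileup percentile of 93.0 ± 2.14. The part of crowded peaks in the low fold values was not tested.

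The families differed in both measures. The median pileup percentile over the genes called throughout was 94.3 for H2A, 93.5 for H2B, 90.4 for H3, 87.6 for H1 and 79.7 for H4. The median fold percentile was 63.1 for H2B, 56.1 for H2A, 47.2 for H4, 45.3 for H1 and 43.4 for H3. These are medians of 14, 15, 12, 7 and 11 genes, of which most H2A and H2B genes share peaks. H4, the partner of H3 in the nucleosome core, spanned the widest range on chromosome 13. For pileup, H4c8 stood at 97.8 ± 1.02 (SD, n = 7), the second strongest single peak in the set, with a fold percentile of 38.5 ± 6.81. H4c1, which shared its peak with H3c1 and H1f1, stood at 96.4 ± 1.04, H4c11 at 75.9 ± 2.64, H4c6 at 77.1 ± 5.22 and H4c4 at 79.7 ± 4.66. On chromosome 3, H4c14 stood at 91.9 ± 1.35. H4f16 (Hist4h4), a lone H4 gene on chromosome 6, stood at 92.2 ± 1.75.

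H2A and H2B form the outer dimers of the nucleosome. Their genes on chromosome 13 had pileup percentiles from 80.7 ± 2.56 at H2ac4, whose peak was shared with H3c2, to the 98.3 of H2ac22 and H2bc22. The lowest H2B peak there was that of H2bc13, 88.9 ± 2.90, shared with H2ac13 and H3c10. On chromosome 3, H2ac20, H2ac21 and H2bc21 lay in a single peak of 2665 ± 154 bp, the longest of the set, at 96.6 ± 0.763, and the lowest were H2ac19 (80.5 ± 1.24) and, for H2B, H2bc18 (91.9 ± 1.76). On chromosome 11 the H2B gene H2bu2 had the lowest pileup of all, 47.2 ± 5.59, with 36.5 to 53.1 in Nedd4L-cKO and 43.2 to 50.3 in WT. Its neighbour H2aw, next to Trim17, stood at 96.0 ± 0.793. H2bc6 has a pair of RefSeq start sites: the outer one lay in the peak of H1f4, and the inner one had its own peak in all 7 libraries at a pileup percentile of 89.2 ± 1.68.

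H3 genes ranged on chromosome 13 from 80.7 at H3c2 to 96.4 at H3c1, and on chromosome 3 from 80.5 at H3c15 to 91.9 at H3c13. The H3c4 value was that of the H2bc7 and H2ac7 peak, which ended at a median position of -889 bp from the H3c4 TSS. A peak lay on the H3c4 TSS itself in 5 libraries only, at 82.4 ± 3.60 for pileup and 0.579 ± 0.143 for fold. H1 genes, whose products bind linker DNA, ranged from 81.8 ± 4.86 at H1f3 to 96.4 at H1f1 on chromosome 13. The H1f1 value was that of the H4c1 and H3c1 peak reaching into its window. The peak on the H1f1 TSS itself was 549 ± 44.3 bp long, at 86.6 ± 2.19 for pileup and 3.48 ± 1.11 for fold. H1f2 had the highest values among H1 genes with a peak of their own, 95.6 ± 2.42 for pileup and 79.6 ± 3.12 for fold. Of the linker variants, H1f10 stood at 69.0 ± 4.12, and the window of the oocyte gene H1f8 held a peak at 87.6 ± 2.88 that ended at a median position of -276 bp and reached the TSS in no library.

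The position of the peak differed between families in a way the rule did not use. The peak covered the TSS in all 7 libraries at 54 of 59 histone promoters (91.5%), beside 85.5% of all promoters called throughout. At H1f2, H1f3, H1f4 and H1f5 the peak ran from a median position of -157 to -130 bp to 1467 to 1859 bp from the TSS, past the end of genes that span 725 to 794 bp. At H3 genes the median upstream edge was at -1290 bp from the TSS and the median downstream edge at 307 bp, and a median of 64.2% of the gene was covered. At H2A and H4 genes the median share covered was 100%, and at H2B genes 99.3%. A narrow peak, the stronger core inside a broad peak, lay on the TSS in all 7 libraries at all 14 H2A and 15 H2B genes, at 10 of 11 H4, 5 of 7 H1 and 6 of 12 H3 genes. Where genes share a peak, the edges of one follow from the place of the other.

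**Figure D3:**
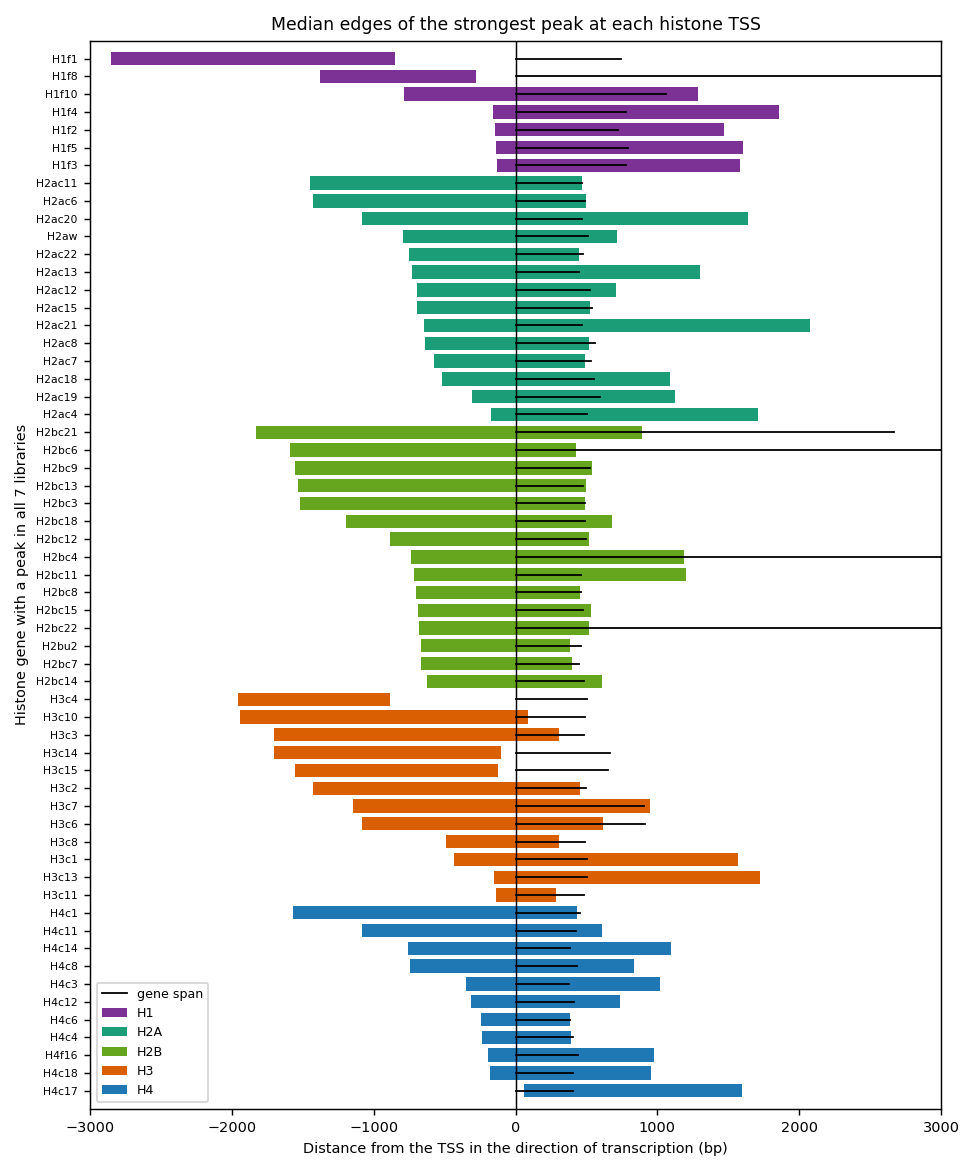
Each bar runs between the median upstream and downstream edges, over 7 libraries, of the strongest peak overlapping the window of a histone TSS (at 0, transcription to the right), coloured by family; black lines give the annotated gene span, cut at the right edge of the plot. H1 bars run to the right over the gene, most H3 bars lie to the left, and H3c4, H3c14, H3c15, H1f1, H1f8 and H4c17 have their strongest peak off the TSS.

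Between genotypes, no histone promoter differed in fold rank, pileup rank or peak length at an adjusted p under 0.05. The test was limma on normal scores of the ranks, or on log2 length, with Benjamini-Hochberg adjustment over 12803 promoters. For fold rank 0 of 12803 promoters passed (0%), with 574 (4.48%) at an unadjusted p under 0.05, and for pileup rank 0 passed (0%), with 305 (2.38%). For peak length 1 promoter passed (0.00781%), which was not a histone promoter, with 459 (3.59%) at an unadjusted p under 0.05. At that unadjusted level there were 2 histone promoters for fold rank (3.39%), 0 for pileup rank and 6 for peak length (10.2%), the last resting on 3 peaks.

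For fold rank the mean was higher in Nedd4L-cKO at 47 of 59 histone promoters (79.7%), beside 62% of all promoters, and the median difference was 0.11 normal-score units, beside 0.05. These genes share 39 regions, so that the count is not one of independent promoters. The 2 with an unadjusted p under 0.05 were H2ac6 and H2bc4, which share a peak. Its fold percentiles were 75.4, 77.5, 74.9 and 63.1 in Nedd4L-cKO and 57.6, 57.3 and 67.7 in WT. One Nedd4L-cKO library lay below the highest WT library, so that the groups overlapped. The difference was 0.33 ± 0.14 (limma SE) and the adjusted p = 0.968. H2bc13, H2ac13 and H3c10, on a common peak, followed at 0.33 ± 0.15, with adjusted p = 0.968. The lowest p-values in the other direction were those of H4c17 (-0.34 ± 0.19, adjusted p = 0.968), H4c4 (-0.11 ± 0.17, adjusted p = 0.976) and the H2ac20, H2ac21 and H2bc21 peak (-0.06 ± 0.13, adjusted p = 0.982). The groups did not overlap in fold percentile at 2 of 59 histone promoters (3.39%), beside 5.76% of all promoters. These were H2ac12 and H2bc12, on a common peak, with 89.8, 90.7, 89.4 and 85.2 in Nedd4L-cKO and 85.1, 85 and 83.9 in WT.

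For pileup rank the mean was higher in Nedd4L-cKO at 25 of 59 (42.4%), beside 48.1% of all promoters, and the median difference was -0.02, beside -0.004. This median had no stable sign. It was 0.022 without Nedd4L-cKO replicate 1, 0.010 without Nedd4L-cKO replicate 2, 0.025 without WT replicate 1, 0.0097 without WT replicate 2 and -0.11 without WT replicate 3. The lowest p-values were those of H2bc14 (-0.19 ± 0.11) and the H2ac11 and H2bc11 pair (-0.17 ± 0.10), and, in the other direction, those of H3c13 and H2bc18 (0.11 ± 0.09) and H4c14 (0.09 ± 0.08). The adjusted p was 1.00 for each. No histone promoter had groups that did not overlap in pileup percentile, beside 3.61% of all promoters.

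Peak length was the measure with the clearest single difference. The peak of H2ac15 and H2bc15, a head-to-head pair in the 18-gene stretch, was 1201, 1190, 1241 and 1223 bp long in Nedd4L-cKO and 1600, 1534 and 1489 bp in WT. All 4 Nedd4L-cKO libraries lay below all 3 WT libraries. The difference was -0.34 ± 0.04 on the log2 scale and the limma adjusted p = 0.294, which did not pass. Its pileup rank differed by less than the limma SE (-0.06 ± 0.14 normal-score units). H4c12, which lies next to this pair, had peaks of 812, 835, 938 and 1036 bp in Nedd4L-cKO and 1121, 1055 and 1145 bp in WT, again without overlap (-0.30 ± 0.09, adjusted p = 0.999). The peak of H2bc13, H2ac13 and H3c10 was 1974 to 2052 bp long in Nedd4L-cKO and 2113 to 2242 bp in WT (-0.12 ± 0.04, adjusted p = 0.999). These 3 peaks were singled out after their values were seen. Groups did not overlap in length at 7 of 59 histone promoters (11.9%), beside 4.38% of all promoters. Several of these genes share a peak, so that the count is not one of independent promoters. The seventh was H4c8, which went the other way, with 1582 to 1607 bp in Nedd4L-cKO and 1537 to 1571 bp in WT. Mean length was higher in Nedd4L-cKO at 24 of 59 (40.7%), beside 51.7%.

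**Figure D4:**
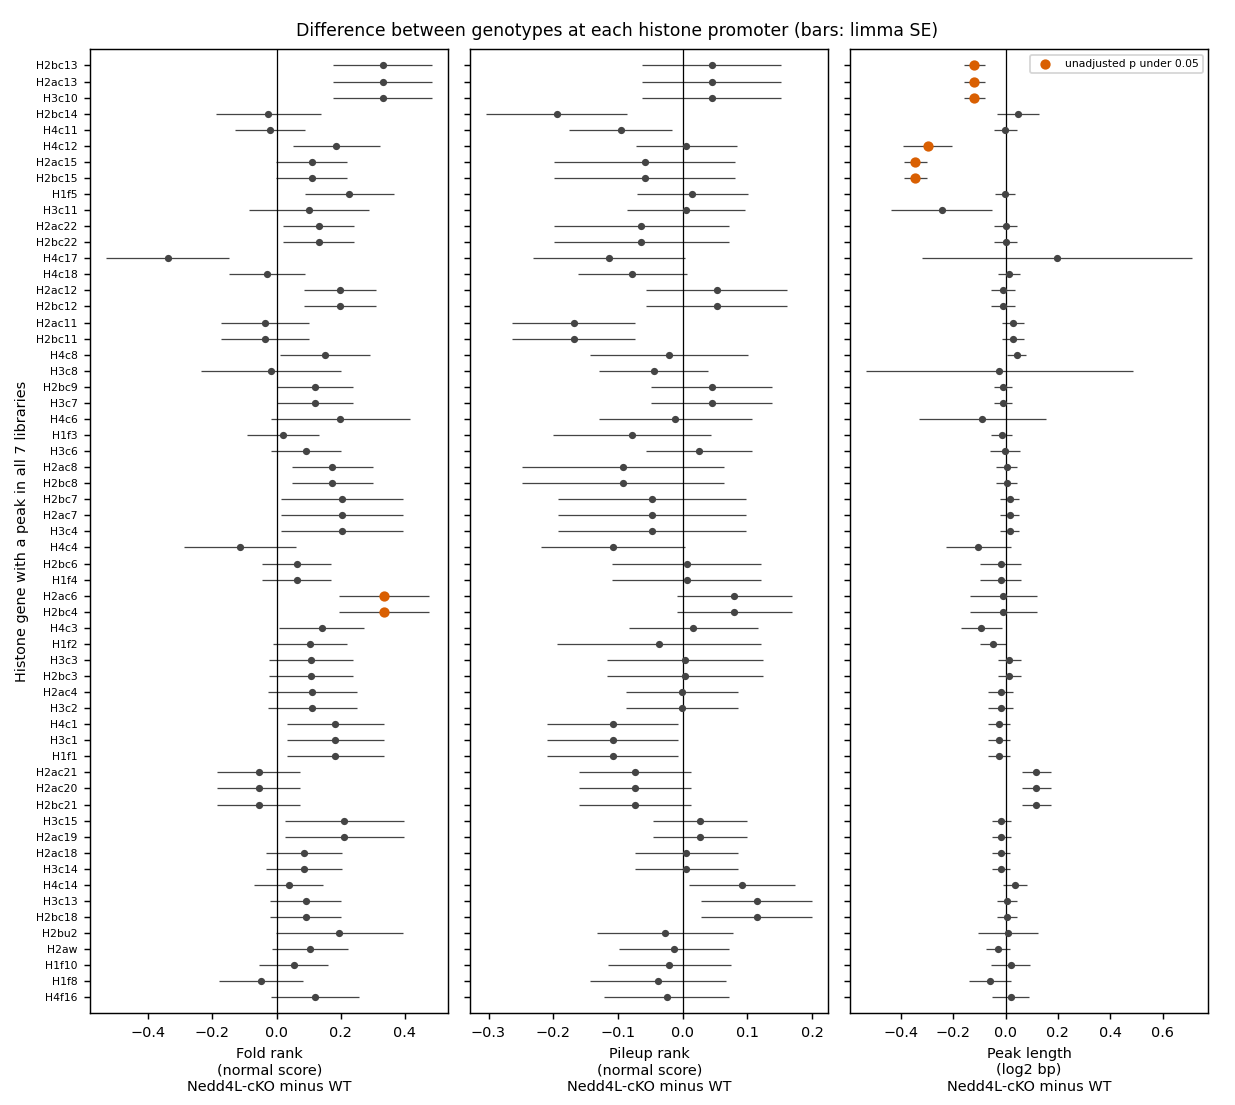
Difference between Nedd4L-cKO (n = 4) and WT (n = 3) at the 59 histone promoters called in all libraries, in fold rank and pileup rank (normal scores) and peak length (log2 bp); bars are the limma SE and orange points have an unadjusted p under 0.05. Only the peaks of H2ac6 and H2bc4 (fold) and of H2bc13, H2ac13, H3c10, H4c12, H2ac15 and H2bc15 (length) are orange, and none passed after adjustment.

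The number of histone promoters at the unadjusted level moved with single libraries, and most with WT replicate 3. This library had the fewest tags and the lowest histone median for pileup (89.5), and with Nedd4L-cKO replicates 1 and 2 (91.7 and 91.3) it made up the 3 libraries with the fewest tags and the 3 lowest medians. Its fold median, 56.5, lay near those of Nedd4L-cKO replicates 1, 2 and 4 (56.8, 59.95 and 58.6), while WT replicates 1 and 2 stood at 45.3 and 46.4 and Nedd4L-cKO replicate 3 at 47.4. Without it, in lane 1 alone, 9 histone promoters had an unadjusted p under 0.05 in fold rank, of which 8 were higher in Nedd4L-cKO, and 9 in pileup rank, all lower. These were 9 of 59 in each measure, beside 5.68% of all promoters for fold and 2.98% for pileup, and they rested on 5 and 6 peaks. None passed adjustment (lowest adjusted p = 0.801 for fold and 1.00 for pileup). The count for fold rank was 0 without Nedd4L-cKO replicate 1 or 2 or WT replicate 1 or 2, and 4 without Nedd4L-cKO replicate 3. For length it was 6 with all libraries, 8 without WT replicate 1 and 3 without Nedd4L-cKO replicate 4 or WT replicate 2. Without WT replicate 3 it was 2, those of the H2ac15 and H2bc15 peak. With the trend and robust options of limma it was 9. With the log2 number of tags as a covariate there were 5 of 59 for fold rank and 3 of 59 for pileup rank, beside 6.39% and 4.69% of all promoters. The parts of lane and depth cannot be told apart for this library.

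**Figure D5:**
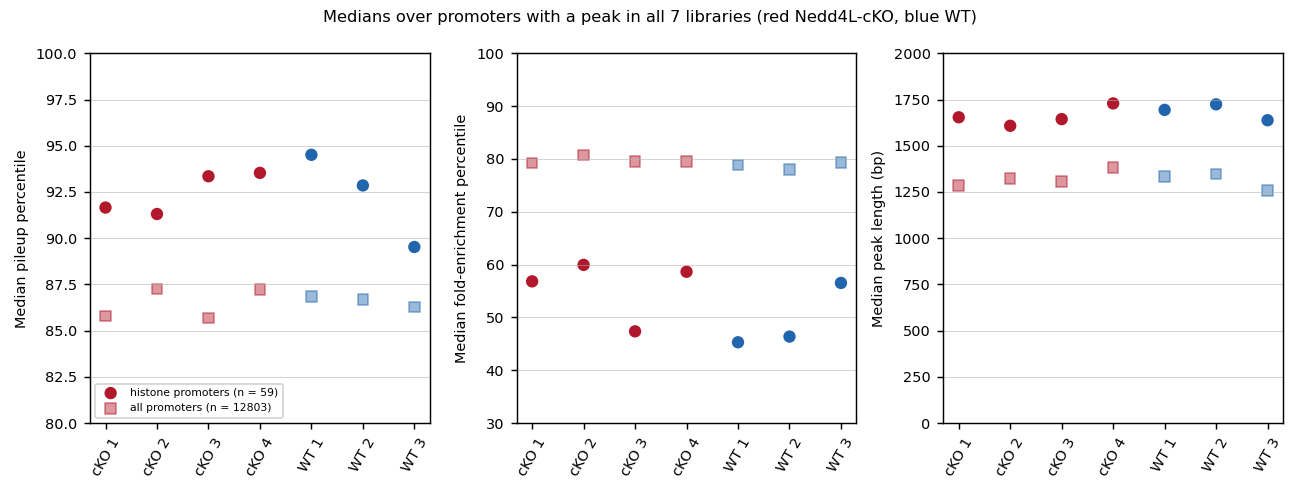
Median pileup percentile, fold-enrichment percentile and peak length in each library (red Nedd4L-cKO, blue WT) over the 59 histone promoters (circles) and all 12803 promoters (squares) called in all 7 libraries. The histone circles lie above the squares for pileup and length and below them for fold in every library, and the genotypes overlap in each panel.

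The genes that transcribe and process histone mRNA had open promoters. All 13 (Npat, Hinfp, Casp8ap2, Slbp, Lsm10, Lsm11, Zfp473, Cpsf3, Cpsf2, Sympk, Eri1, Pou2f1 and Gon4l) were called in all 7 libraries, with a median pileup percentile of 94.0 and a median fold percentile of 85.5. The histone medians were 92.8 and 50.4. Slbp, whose product binds the stem-loop, stood at 99.1 ± 0.275 for pileup (SD, n = 7), Npat at 95.4 ± 1.67, and Hinfp, which binds H4 promoters, at 96.3 ± 0.892. All 8 histone chaperones were called in all 7 libraries too, with Asf1b at 97.9 ± 0.810 and Chaf1a at 89.1 ± 2.19.

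The 10 replacement variants are not made in S phase alone and come from genes outside the clusters. Of these, 9 were called in all 7 libraries at the outer TSS. The tenth, H3f3b, had none there, but its RefSeq promoter inside the gene span had a peak in all 7 at 99.8 ± 0.0329 for pileup, above every clustered H3 gene. H2az2 and H2az1 stood at 99.0 ± 0.379 and 98.9 ± 0.477, and H3f3a at 86.7 ± 1.53, within the range of the clustered H3 genes. H1f0, a linker variant of non-dividing cells, stood at 84.2 ± 3.17. High pileup with low fold was also found at promoters outside the clusters. The fold percentile was 20.3 ± 3.48 at H3f3a, 27.3 ± 7.23 at H1f0, 47.2 ± 7.28 at H2az1 and 23.3 ± 4.98 at H2aj, whose pileup percentile was 87.9 ± 1.94. Among the MuSC markers, Pax7 had a fold percentile of 10.7 ± 7.22 with a pileup percentile of 85.2 ± 2.48, and Cdh15 had 1.39 ± 0.642 with 97.9 ± 1.61. The combination was thus not particular to the histone clusters. Of the regulator, chaperone and variant promoters with a peak in all 7 libraries, none passed the unadjusted level of 0.05 in limma for fold rank, pileup rank or length.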

How the data were processed

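ATAC-seq was measured in 4 Nedd4L-cKO and 3 WT libraries of 5000 sorted MuSCs, grouped by the genotype label. Per the submitters' processing notes and the study's methods, the authors trimmed reads with Trimmomatic 0.39, aligned them to mm10 with BWA 0.7.17, kept alignments of mapping quality over 30 with SAMtools, removed duplicates with Picard 2.26.3 and called peaks in each library with MACS2 2.2.7.1. Per the file headers, peaks were called in broad mode (q of 0.1 for broad and 0.05 for narrow peaks, 200 bp tag extension, 1 tag per position, local background over 10 kb). The deposited pileup is mean coverage over the peak, and the deposited fold enrichment is the ratio of pileup to background. The authors' files also give −log10 p and −log10 q, of which q was used in 1 alternative. The effect of the quality filter on values at repeated promoters was not tested. Counting precision is set by 14429374 to 20084685 tags per library, and the peak lists give no read counts per promoter.

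For each gene, the highest pileup, the highest fold and the longest length of the peaks overlapping the window from 1 kb before to 1 kb after the outer TSS were taken. Ranks were computed within each library and converted to normal scores. Genotypes were compared with limma 3.58.1 (R 4.3.3; default options, Benjamini-Hochberg) over the 12803 promoters called in all libraries, after a test on simulated data. Python 3.11.15 did the rest. GRCm39 served only to count repeated 150-base stretches, without coordinates. Named genes were the highest and lowest pileup of each family on each chromosome, every gene called in fewer than 7 libraries, the 3 lowest p-values in each direction for fold and pileup rank, and the head-to-head pair with the highest pileup. Other genes were named after their values were seen. The genes and lists were chosen with earlier results of these data known. Alternatives covered the peak threshold, number of peaks, window, choice of peak, TSS, limma options, tags, merged regions, replicate block and each library left out. All value columns in the files belonged to a sample (0 unused).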

Additional observations from a re-analysis of the deposited data

Results flagged for a closer look

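In groups of 4 libraries, a library was marked when its gap to the nearest of the others exceeded Dixon's 95% critical share of the group's range. Of 66 groups tested, 2 were marked, and chance marks about 1 in 20. The H3c1 peak, shared with H4c1 and H1f1, was 1905 bp long in Nedd4L-cKO replicate 1 and 2010 to 2020 bp in the other Nedd4L-cKO libraries. The peak in the window of H1f8 was 922 bp long in Nedd4L-cKO replicate 2 and 1096 to 1100 bp in the others.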

How the results depend on the processing

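The count of histone promoters called in all libraries ran from 54 to 66 over the alternatives (59 as reported). Differences between genotypes were followed for 22 combinations of gene and measure. These were the lowest p-values in fold and pileup rank and the lengths with an unadjusted limma p under 0.05. None of these changed sign, a choice by p favours stable signs, and other named differences were not followed. The median differences over the histone promoters did change sign when libraries were left out (-0.11 to 0.025 for pileup rank and -0.016 to 0.0024 for log2 length). With peaks of −log10 q of at least 5, the median fold percentile was 26.9 (all promoters 65.5), the median pileup percentile 85.2 (all 77.1), 1 promoter parted the genotypes (6 as reported) and 0 differed in length (1 as reported). With 2.5 kb on either side of the TSS, the median fold percentile was 60.6 (all 78.3) and 2 histone promoters had no peak in any library (7 as reported), and without the linker variants and testis genes 4 had none. Taking the peak with the longest overlap, 1 promoter differed in fold rank (0 as reported). With every TSS of the RefSeq promoter table, an alternative chosen after seeing the data, 2 differed in length. Leaving out each library in turn, 2 to 5 promoters differed in length, 7 to 16 parted the genotypes and 59 to 60 histone promoters were called in all libraries. The histone promoters with an unadjusted p under 0.05 then numbered 0 to 9 in fold rank and in pileup rank, and 2 to 8 in peak length. Same-numbered libraries did not deviate together (r of -0.13, 0.0016 and -0.092), but correlations between single libraries cannot exclude a pairing. With the replicate number as a block, 0 promoters differed in fold rank, pileup rank or length. The cause of these changes was not tested. Single-mouse libraries, 4 against 3, and ranks in place of read counts limit the size of difference that could be detected.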

Other observations

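Histone pseudogenes lay in the same open stretches. H2ac14 and H2ac5-ps on chromosome 13 and H2bu1-ps on chromosome 11, and the more distant H2af-ps2 on chromosome 13, each had a peak on the gene span in all 7 libraries. H2ac14 lay within the region of H2bc14, H2ac5-ps within that of H3c3 and H2bc3, and H2bu1-ps within that of H2aw. No separate peak can therefore be assigned to H2ac14, H2ac5-ps or H2bu1-ps. Outside the clusters, the X-linked gene H2al3 had a peak in all 7 libraries at a pileup percentile of 38.8 ± 13.5 (SD, n = 7). Another histone gene that the name rule did not take in, H3f4 on chromosome 11, was called in 2 libraries, 1 of each genotype.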
